A study of Mus with 438 samples.

Results

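Inferior cones of 2-month-old control mice were divided by their opsin RNA into a mixed side and an S-dominant side. The members are the 50 inferior control cones labelled 2m, of 430 single-cell RNA libraries in the series. For each cell the M share was computed as Opn1mw/(Opn1mw + Opn1sw), in CPM (read counts scaled to a common library size). A cell with a share of 0.1 or more was placed on the mixed side and every other cell on the S-dominant side. This gave 12 mixed cones (24% of 50, exact 95% interval 13.1% to 38.2%) and 38 S-dominant cones. The question was whether the mixed cones are closer to superior cones in genes other than the opsins.

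Mouse cones detect light with a medium-wave opsin (M opsin, Opn1mw) and a short-wave opsin (S opsin, Opn1sw), and many cones hold both. The 2 opsins lie in counter-gradients over the retina, with more M opsin in the superior (dorsal) zone and more S opsin in the inferior (ventral) zone. The cone form of thyroid hormone receptor beta, made from Thrb, is needed for M opsin and holds S opsin down, and Vax2 is a homeodomain factor of the ventral retina. Cones with both opsins in the inferior zone therefore differ from their neighbours in a property that usually marks the other zone.

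All mice were of the C57BL/6 strain. Control cones came from Trb2Cre-het:Ai6 mice, which carry 1 copy of a Cre driver at the receptor gene and a fluorescent reporter, so that the controls too have the driver. Each cone was picked by micromanipulator as a fluorescent cell from a dissociated piece of superior or inferior retina. For comparison, 53 superior control cones of the 2m collection were used, along with control cones of postnatal day 21 (P21, 24 superior and 24 inferior) and of day 60 (P60, 26 superior and 21 inferior), which are labelled as separate collections. Receptor-knockout cones (Trb2Cre-KO:Ai6, 2 months) numbered 50 superior and 48 inferior, and 29 rods came from tgNrl:gfp mice. The labels name no animal, so the 50 inferior cones count as 1 sample, both sides come from it, and no test between the sides was made. Means, SDs and intervals below are over cells and describe these cells only.

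The opsin values chose the sides and are given as a description. Opn1mw (gene ID 14539, GRCm38 chrX:74127466-74150756) lay at 5680 CPM in the lowest mixed cone, at a median of 8598 CPM and at 15834 CPM in the highest. In the S-dominant cones it ran from 0.916 through a median of 1573 to 5568 CPM. The superior cones ran from 3269 through 8277 to 22522 CPM, so the mixed cones lay within the range of superior cones for M opsin RNA. Opn1sw (gene ID 12057, chr6:29376671-29380513) ran from 7466 through 29526 to 54699 CPM in mixed cones and from 33250 through 59971 to 108624 CPM in S-dominant cones. Superior cones ran from 44.3 through 9991 to 65875 CPM, and the median of the mixed cones lay between the other medians. The mixed cones therefore held M opsin RNA at a superior level together with an S opsin level that overlapped both other groups. The summed opsin RNA had a median of 36367 CPM in mixed, 61744 CPM in S-dominant and 19829 CPM in superior cones.

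**Figure D1:**
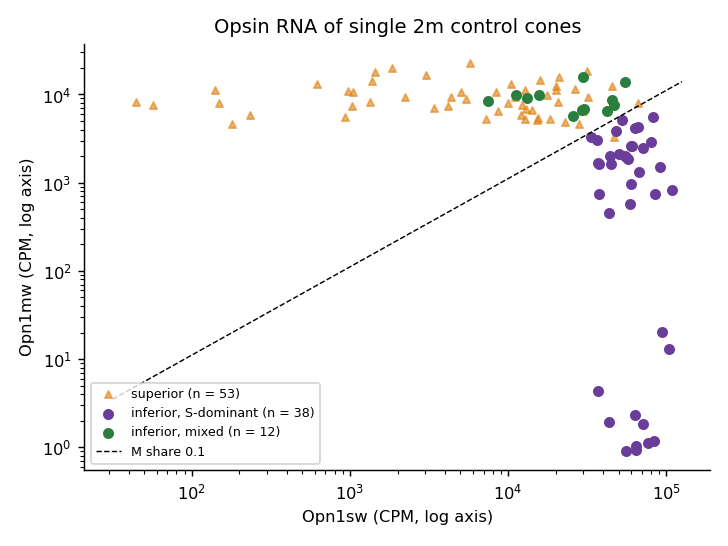
Opn1mw against Opn1sw in each 2m control cone, in CPM on log axes, with the dashed line at an M share of 0.1. The 12 mixed inferior cones lie at the height of the 53 superior cones, and 11 S-dominant cones lie apart at the bottom, under 25 CPM of Opn1mw.

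The M share ran from 0.132 through a median of 0.193 to 0.532 on the mixed side and from 1.39e-05 through 0.0254 to 0.0899 on the S-dominant side. No inferior cone had a share above 0.9, against 12 of the 53 superior cones. The 3 cells just under the limit had shares of 0.0779, 0.0890 and 0.0899, and the 3 cells just above it had 0.132, 0.139 and 0.162. No cell lay between 0.0899 and 0.132. The S-dominant side was itself uneven, because 11 of its cells had at most 20.3 CPM of Opn1mw and the next cell had 452 CPM. The other 27 S-dominant cones had between 452 and 5568 CPM, with a median of 1989 CPM. Knockout inferior cones had a mean of 1.47 CPM and rods a mean of 0.00918 CPM of Opn1mw, so these 27 cells lay far above the level of cells that lack the transcript. Inferior cones with a share of 0.1 or more were found in 1 of 24 cells at P21 and 0 of 21 cells at P60, where a count of 0 allows up to 14.3%. All superior control cones of P21 and P60 and 52 of the 53 superior cones of the 2m collection had such a share.

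Several properties of the libraries moved with the sides. Of the 12 mixed cones, 11 were among libraries 1 to 26 and 1 was library 30, whereas 15 S-dominant cones were in libraries 1 to 26 and 23 in libraries 27 to 50. Xist, the RNA that coats the inactive X chromosome, was above 1 CPM in 8 of 12 mixed cones (66.7%, 34.9% to 90.1%) and in 10 of 38 S-dominant cones (26.3%, 13.4% to 43.1%). All 18 of these cells were in libraries 1 to 26, where Xist was above 1 CPM in 8 of 11 mixed and 10 of 15 S-dominant cones, and where it no longer met the size rule described below. The median number of genes above 0 was 5970.5 in mixed and 5639 in S-dominant cones, and within the S-dominant side it was 5893 in libraries 1 to 26 and 4835 in libraries 27 to 50. Median reads were 1.30e+07 and 1.45e+07 per cell. Whether the library numbers mark animals or days is not given in the sources used here, and the opsin side and the library block cannot be told apart for libraries 27 to 50, which hold 1 mixed cone. For that reason the leading values are also given within libraries 1 to 26.

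**Figure D2:**
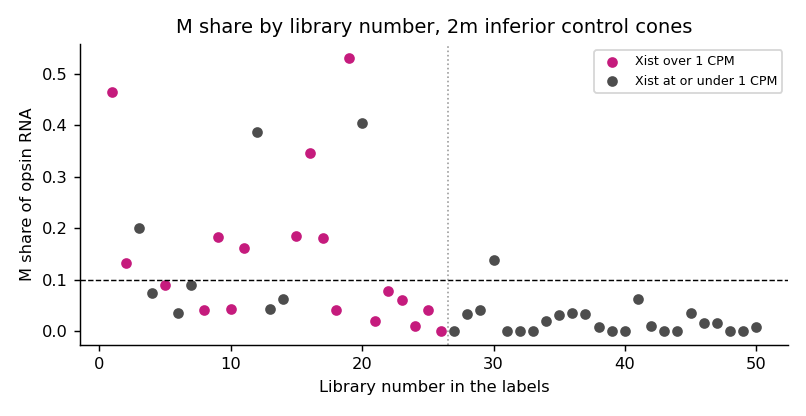
M share of opsin RNA in each 2m inferior control cone by the library number in the labels, with the limit of 0.1 dashed and a dotted line between libraries 26 and 27. Cells with Xist above 1 CPM are coloured, and 11 of the 12 mixed cones and all cells with Xist lie left of the dotted line.

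The labelled cell type was checked with markers. Summed cone phototransduction RNA without the opsins (18 genes measured) had a median of 38183 CPM in mixed and 36984 CPM in S-dominant cones, against 10563 CPM in rods. Summed rod genes (13 measured) ran from 15808 through 23102 to 33367 CPM in mixed cones and from 13953 through 22274 to 37485 CPM in S-dominant cones, against a median of 155398 CPM in rods. The rod sums of the sides overlapped almost wholly. Summed Müller glia markers (7 measured) had medians of 698 and 1032 CPM, with ranges of 9.62 to 1890 and 1.28 to 4435 CPM. Bipolar markers (3 measured) had medians of 0.2 and 41.2 CPM, in S-dominant cones mostly from Cabp5, and exceeded 100 CPM in 2 of 12 mixed and 18 of 38 S-dominant cones. The part of this glial and bipolar RNA in the differences below was not tested.

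To ask about zone genes without using the inferior 2m cells, superior genes and inferior genes were taken from the P21 and P60 cones, which share no cell with the sides. A gene met the size rule where the ratio of mean CPM + 1 and the difference of mean log2(CPM + 1) both reached 2-fold in the same direction. It also needed a mean of at least 10 CPM in the higher group and more than 1 CPM in at least 25% of its cells. At P21 the rule took 734 genes as higher in superior cones (7.07% of 10388) and 361 as higher in inferior cones (3.48%), and at P60 it took 628 (6.05%) and 327 (3.15%). At both ages, 85 genes were higher in superior cones (0.818%) and 37 were higher in inferior cones (0.356%), and 84 and 34 of these had a mean of at least 5 CPM over the 2m control cones and were examined between the sides. A count test used reads summed per group at P8, P21 and P60 (edgeR's quasi-likelihood test, 6 group sums, collection as a block). It called 0 of 10096 genes between the zones at an adjusted p of 0.05. At an unadjusted p under 0.05 it had 324, fewer than that limit passes by chance when no gene differs. P8 was not used for the zone lists, and those lists rest on size and not on a test.

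Superior genes were more often higher in mixed than in S-dominant inferior cones than genes in general. By the same size rule, 26 of the 84 superior genes (31%) were higher in mixed cones, where 8.38% of all 9461 genes examined were, and 3 (3.57%) were lower, where 4.16% of all genes were. Their median difference of mean log2(CPM + 1), mixed minus S-dominant, was 0.37 against 0.12 for all genes examined. Within libraries 1 to 26 the superior genes had 18 higher (21.4%, all genes 7.05%) and 8 lower (9.52%, all genes 10.4%), with a median of 0.18 against -0.18 for all genes. Of the 26 genes, 14 were also higher within libraries 1 to 26. The excess of higher genes over the background was therefore smaller, but of the same direction, among libraries of the same number block. Not every zone gene kept its zone direction in the 2m collection. Among the 26, Mettl16, 1190002N15Rik, Ptar1 and Tmem55a were lower in superior than in inferior 2m control cones. Their differences of mean log2(CPM + 1), superior minus inferior, were -0.67, -0.45, -0.74 and -0.09.

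Among these genes Kpna2, an importin that carries proteins into the nucleus (gene ID 16647, chr11:106988629-106999525), had the largest difference in mean log2(CPM + 1) over all cells. Samd7 was among those with a larger ratio of mean CPM, and Smug1 and Slc24a2 were among those with a larger log2 difference within libraries 1 to 26 (3.28 and 3.12). Kpna2 ran from 266 through 848 to 2444 CPM in mixed cones, from 0.0679 through 161 to 1276 CPM in S-dominant cones and from 18.2 through 1059 to 3013 CPM in superior cones. Every mixed and every superior cone was above 1 CPM, whereas 23 of 38 S-dominant cones were (60.5%, 43.4% to 76.0%), so the S-dominant cells fell into a group with and a group almost without Kpna2 RNA. The difference in mean log2(CPM + 1) was 4.76 over all cells and 2.49 within libraries 1 to 26, where 11 of 11 mixed and 12 of 15 S-dominant cones were above 1 CPM. In knockout cones, which have almost no M opsin, 45 of 50 superior and 11 of 48 inferior cells were above 1 CPM.

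Smug1 (gene ID 71726, chr15:103153290-103168939), a uracil-DNA glycosylase of base excision repair, was above 1 CPM in 5 of 12 mixed cones (41.7%, 15.2% to 72.3%), 4 of 38 S-dominant cones (10.5%, 2.94% to 24.8%) and 45 of 53 superior cones (84.9%). The lowest mixed cone was at 0, the median at 0.434 and the highest at 497 CPM, against 0, 0.0497 and 774 CPM in S-dominant cones. Thus the cells that held it on either side reached similar levels and the sides differed in how many held it. In knockout cones it was above 1 CPM in 44 of 50 superior and 9 of 48 inferior cells. Samd7 (gene ID 75953, chr3:30746293-30767174), a photoreceptor protein that works with Polycomb repressors, was above 1 CPM in 3 of 12 mixed cones (25%, 5.49% to 57.2%), with 107 CPM in the highest. It was above 1 CPM in 0 of 38 S-dominant cones, which allows up to 7.89%, and in 29 of 53 superior cones. Unlike Kpna2 and Smug1, Samd7 was above 1 CPM in 1 of 50 superior and 0 of 48 inferior knockout cones. The intervals of the sides overlap for both Smug1 and Samd7. The Samd7 call rested on 1 cell. Its mean in mixed cones was 11.8 CPM, near the minimum of 10 CPM, and its share of cells was at the minimum of 25%. Without the highest mixed cone its difference in mean log2(CPM + 1) fell from 1.22 to 0.72, under the 2-fold limit.

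Ptp4a2, a protein tyrosine phosphatase, ran from 0 through 163 to 804 CPM in mixed cones and from 0.0695 through 0.917 to 417 CPM in S-dominant cones, and 7 of 12 and 18 of 38 cells were above 1 CPM. Slc24a2, the cone sodium/calcium-potassium exchanger, had a mean of 268 CPM in mixed and 97.7 CPM in S-dominant cones, with 8 of 12 and 15 of 38 cells above 1 CPM. Impg1, a proteoglycan of the matrix around photoreceptors, had means of 489 and 213 CPM, and its call was lost within libraries 1 to 26. Slc24a2 and Ptp4a2 kept their calls there. The other superior genes higher in mixed cones were Paqr4, Abhd3, Derl1, Dirc2, Ell3, Mettl16, 1190002N15Rik, Asb13, Gm626, Tmem55a, Etf1, Echdc1, Ccdc32, Cwc27, Ssfa2, 2010111I01Rik, Ptar1, Spin1, Mmp24 and Apela. Ccdc32 was above 1 CPM in 5 of 12 mixed and 3 of 38 S-dominant cones, and Ssfa2 in 5 of 12 and 2 of 38. The 3 superior genes lower in mixed cones were Fmr1, which encodes an RNA-binding protein of translation control, Gm12258 and Mecr, an enzyme of mitochondrial fatty acid synthesis. Gm12258 was above 1 CPM in 0 of 12 mixed and 10 of 38 S-dominant cones. Superior minus inferior in the 2m control cones, Fmr1, Gm12258 and Mecr differed by 1.15, 0.29 and -0.41 in mean log2(CPM + 1). Of the 8 superior genes with the largest zone difference, A930001M01Rik, Chrnb4 (a nicotinic acetylcholine receptor subunit) and Ppa1 (inorganic pyrophosphatase) did not meet the rule, with differences of 1.13, -0.38 and 2.60.

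**Figure D3:**
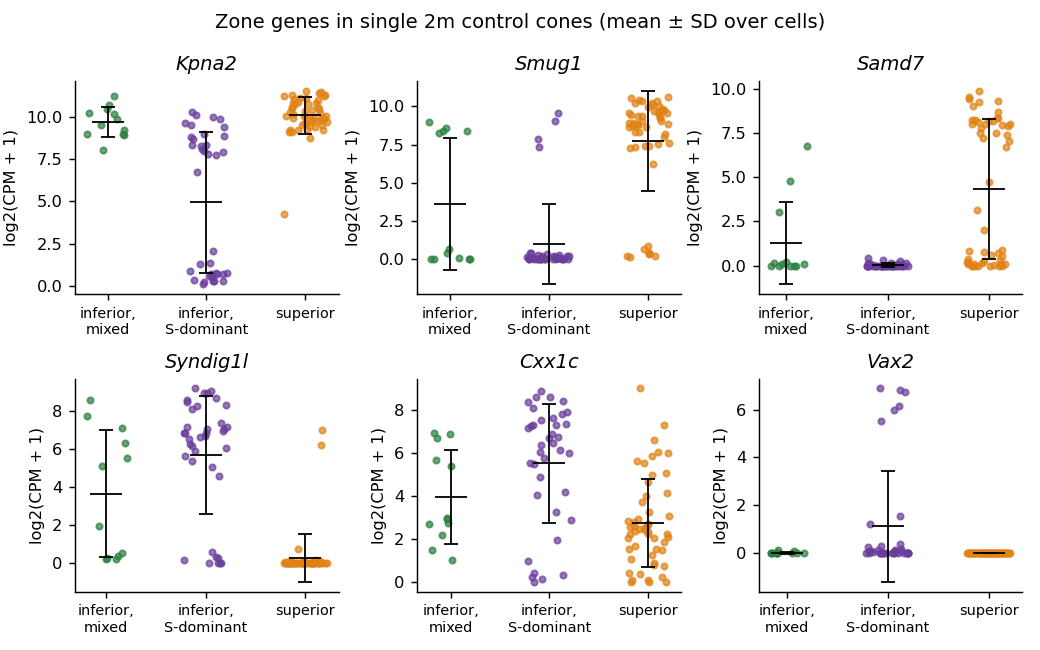
Level of 6 zone genes in each mixed inferior, S-dominant inferior and superior 2m control cone, as log2(CPM + 1), with the mean and SD over cells. Kpna2 is on in all mixed and superior cones, while Vax2 is at or near 0 in all mixed and superior cones and above 1 CPM in 8 S-dominant cones.

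Inferior genes had more members lower than higher in mixed cones. Of the 34 examined, 9 (26%) were lower in mixed cones and 2 (5.88%) were higher, beside the 4.16% and 8.38% of all genes. Their median difference was -0.40. Within libraries 1 to 26 the counts were 8 lower (23.5%, all genes 10.4%) and 3 higher (8.82%, all genes 7.05%), with a median of -0.36 against -0.18 for all genes, and 7 of the 9 genes were lower there too. The excess over all genes was thus smaller within the block. Among cells with at least 5100 genes above 0, the counts were 13 lower (38.2%, all genes 8.21%) and 0 higher (all genes 6.71%). Among the 9, Dph6 and Gm9752 were higher in superior than in inferior 2m control cones, by 0.22 and 0.87 in mean log2(CPM + 1). Inferior genes outside the 9 and superior genes outside the 26 also went against their zone in the 2m collection. The medians here and the zone score below include such genes.

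Syndig1l, a relative of a synapse-inducing membrane protein (gene ID 627191, chr12:84677277-84698947), ran from 0.149 through 17.8 to 379 CPM in mixed cones and from 0 through 107 to 578 CPM in S-dominant cones. It was above 1 CPM in 7 of 12 mixed cones (58.3%, 27.7% to 84.8%), 30 of 38 S-dominant cones (78.9%, 62.7% to 90.4%) and 2 of 53 superior cones. The mixed cones thus included cells with and cells almost without Syndig1l RNA, and within libraries 1 to 26 the counts were 7 of 11 and 15 of 15. Cells above 1 CPM for Syndig1l and for Smug1 at once were found on both sides, as libraries 3 and 9 of the mixed cones and libraries 14, 34 and 38 of the S-dominant cones. En2, an engrailed homeobox gene (gene ID 13799, chr5:28165696-28172190), was above 1 CPM in 0 of 12 mixed cones, which allows up to 25%, and in 11 of 38 S-dominant cones (28.9%, 15.4% to 45.9%), with 398 CPM in the highest. No superior control cone was above 1 CPM for En2. Cxx1c, an X-linked gene (chrX:53607922-53609135), ran from 1.04 through 6.79 to 120 CPM in mixed and from 0 through 83.9 to 461 CPM in S-dominant cones, so its level differed more than the share of cells.

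Cabp5, a calcium-binding protein that also marks bipolar cells, was above 1 CPM in 1 of 12 mixed and 19 of 38 S-dominant cones, with means of 30.3 and 244 CPM. It is also the gene that carried most of the bipolar marker sum of the S-dominant cones. Socs3, a suppressor of cytokine signalling, was above 1 CPM in 2 of 12 and 13 of 38 cells. Ssbp4, a single-stranded DNA-binding protein, had means of 87.9 and 209 CPM. The other inferior genes lower in mixed cones were Dph6, Gm9752 and 4933416I08Rik. The 2 that were higher were Gm15800 and Gtpbp1, a GTP-binding protein, with means of 186 CPM in mixed and 63.5 CPM in S-dominant cones for Gtpbp1. Superior minus inferior in the 2m control cones, these 2 had differences of -0.41 and 1.32 in mean log2(CPM + 1). Gtpbp1 thus went against its zone direction in that collection. Among the 8 inferior genes of largest zone difference, only Syndig1l and Cxx1c were lower in mixed cones, and Gtpbp1 was higher. BE949265, BB114814, Ccdc136 and Sgk1, a serum-regulated kinase, did not meet the rule, with differences of -0.76, 0.54, -0.13 and 0.36. Epha8 was not among the genes examined.

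Vax2 (gene ID 24113, chr6:83711239-83738313) did not meet the rule over all cells or within libraries 1 to 26, because few cells held it. It was above 1 CPM in 0 of 12 mixed cones (highest 0.101 CPM), 8 of 38 S-dominant cones (21.1%, 9.55% to 37.3%; highest 117 CPM) and 0 of 53 superior cones. The upper limit of 25% that 0 of 12 allows is above the S-dominant share of 21.1%. Whether the shares of cells with Vax2 differ between the sides was not tested. The difference in mean log2(CPM + 1) was -1.11 over all cells, and it was -1.64 among cells with at least 5100 genes above 0, where Vax2 did meet the rule as lower. On the ratio of mean CPM + 1 alone the log2 difference was -3.84. Its antisense neighbour Vax2os was above 1 CPM in 1 of 12 and 6 of 38 cells. Of the genes picked as inferior in an earlier look at these same cells, which is not independent evidence, 2 of 5 examined were lower (En2 and Syndig1l). That is 40%, beside 4.16% of all genes. The same 2 were lower within libraries 1 to 26, where 10.4% of all genes were. Kcne2, a potassium channel subunit, had means of 1790 and 1554 CPM, and Ccdc136, which lies next to Opn1sw on chromosome 6, had means of 1334 and 1886 CPM. These 2 differed by 0.34 and -0.13 in mean log2(CPM + 1), and the cells of the sides overlapped. Of the genes picked as superior in that look, 6 of 9 were higher in mixed cones: Desi1, Kpna2, Pja1, Ptp4a2, Samd7 and Smug1. These are 66.7%, beside 8.38% of all genes. Pja1, an X-linked ubiquitin ligase, lost its call within libraries 1 to 26, which left 5 of 9 (55.6%, all genes 7.05%).

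**Figure D4:**
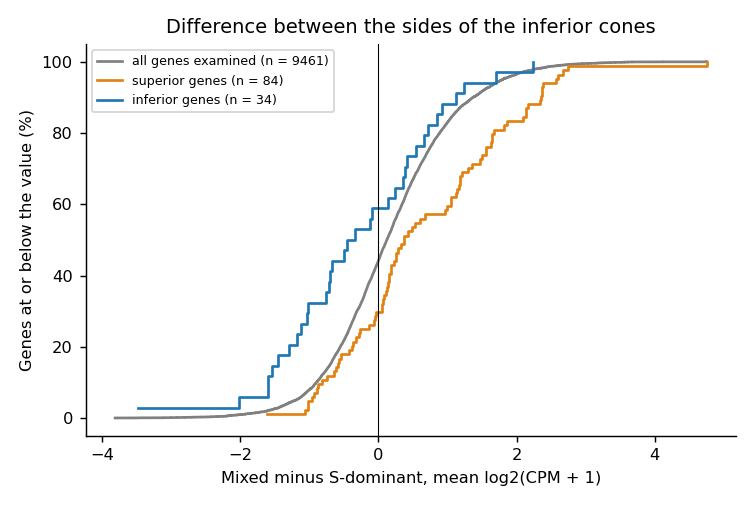
Cumulative share of genes (percent) by their difference between the sides, as mean log2(CPM + 1) of mixed minus S-dominant cones, for all 9461 genes examined, 84 superior genes and 34 inferior genes. The superior genes lie to the right of all genes and the inferior genes to the left, with medians of 0.37, 0.12 and -0.40.

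A zone score was then computed in each cell, as the mean log2(CPM + 1) of the 85 superior genes minus that of the 37 inferior genes. Mixed cones had a score of -0.065 ± 0.54 (SD over 12 cells), ranging from -0.997 through a median of -0.24 to 1.05. S-dominant cones had -1.03 ± 0.69 (38 cells, -2.45 through -0.93 to 0.33) and superior cones 0.75 ± 0.66 (53 cells, -1.96 through 0.84 to 2.10). The mixed cones thus lay between the other groups: 11 of 12 were above the median of the S-dominant cones and 1 of 12 reached the median of the superior cones. The mean of mixed cones was 0.97 above the S-dominant mean, with a pooled SD of 0.66, and 0.81 below the superior mean. Within libraries 1 to 26 the difference between the sides was 0.81, and 10 of 11 mixed cones were above the S-dominant median. On the other hand, 3 of 12 mixed cones exceeded every S-dominant cone and 4 of 38 S-dominant cones reached the mixed median, so the sides overlapped.

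The score was also computed without its strongest genes. Without the 8 superior and 8 inferior genes of largest zone difference it differed by 0.83 over all cells and by 0.55 within libraries 1 to 26. Without X-linked genes the values were 0.93 and 0.73. The choice of zone genes mattered more. Genes taken from P21 alone (721 superior and 349 inferior genes examined) gave 0.16, and genes from P60 alone (621 and 317) gave 0.28. Genes passing a 4-fold rule, only 6 and 4, gave 1.99. The 2 gene sets of the score also behaved differently by library block. Over all cells the mean of the superior genes was 2.40 in mixed and 1.74 in S-dominant cones, and that of the inferior genes 2.47 and 2.77. Within libraries 1 to 26 the mean of the superior genes was 2.46 and 2.21, and that of the inferior genes 2.52 and 3.08. Thus the larger gap was in the superior genes over all cells and in the inferior genes within libraries 1 to 26.

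**Figure D5:**
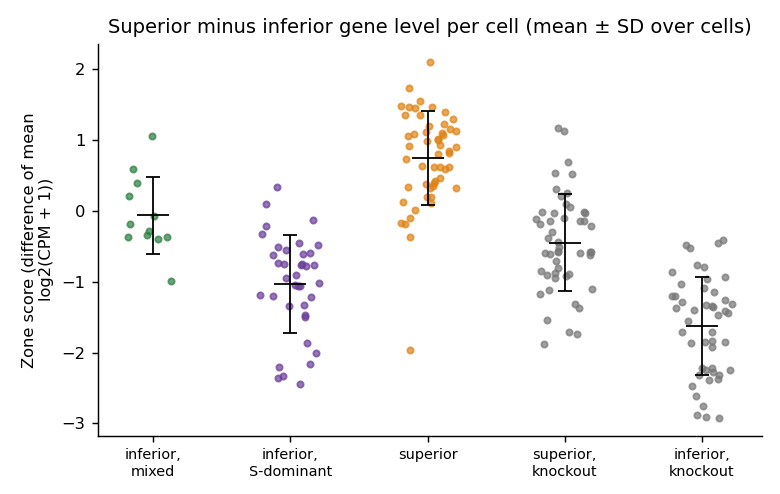
Zone score (mean log2(CPM + 1) of superior genes minus that of inferior genes) in each cone of 5 groups of the 2m age, with the mean and SD over cells. Mixed inferior cones (mean -0.065) lie between S-dominant inferior cones (-1.03) and superior cones (0.75), and knockout cones lie lower on average than control cones of their zone.

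Across the 50 inferior cones the M share and the zone score had a Spearman rho of 0.58 and a Pearson r of 0.45. In libraries 1 to 26 (26 cells) rho was 0.66 and in libraries 27 to 50 (24 cells) it was 0.36. The 38 S-dominant cones alone had a rho of 0.36 and the 12 mixed cones alone -0.23, so the relation was not seen within the mixed side. In the 53 superior cones rho was 0.42. These are descriptions over cells that share a sample within each zone. The values over all 50 inferior cones, and over either side of them, span both library blocks. The number of genes above 0 had a rho of 0.42 with the M share over the 50 cells and 0.035 within libraries 1 to 26. With the zone score its rho was 0.034 over the 50 cells, -0.074 in libraries 1 to 26, -0.21 in libraries 27 to 50 and -0.36 in the 12 mixed cones. The 11 S-dominant cones with under 25 CPM of Opn1mw had a score of -1.29 ± 0.86 and the other 27 had -0.93 ± 0.60, a gap within their SDs. The single P21 inferior cone with a share of 0.1 or more, at 0.137, had a score of -2.79, below the median of -2.33 of the P21 inferior cones, although those cells helped to choose the zone genes. Knockout superior cones, with a median of 0 CPM of Opn1mw, had a score of -0.45 ± 0.68 and knockout inferior cones -1.63 ± 0.69. The zone score thus differed between the zones in cells that had almost no M opsin RNA.

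Genes that pattern the dorsal retina gave no values that set mixed apart from S-dominant cones. Nr2f2, a nuclear receptor of dorsal retina, was above 1 CPM in 0 of 12 mixed, 0 of 38 S-dominant and 15 of 53 superior cones. Efnb1, a dorsal ephrin, was above 1 CPM in 0, 0 and 6 cells, and Aldh1a1, a retinoic acid-making enzyme of dorsal retina, in 0, 1 and 5 cells. The mixed cones therefore had none of the 3 dorsal markers above 1 CPM, and 0 of 12 allows up to 25%. The ventral receptor Ephb2 was above 1 CPM in 0 of 12, 2 of 38 and 5 of 53 cells, and Epha8, another Eph receptor and an inferior gene, in 0, 6 and 0 cells.

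Thrb (gene ID 21834, chr14:17659225-18040097) gave no stable direction between the sides. It ran from 0 through 64.8 to 1178 CPM in mixed cones and from 0 through 45.9 to 1065 CPM in S-dominant cones, with 8 of 12 and 25 of 38 cells above 1 CPM. The difference in mean log2(CPM + 1) was 0.43 over all cells and turned to -1.65 within libraries 1 to 26, both smaller than the SD of 3.71 over mixed cells. Of 13 thyroid hormone pathway genes examined, 1 was higher and 1 was lower (7.69% each, beside 8.38% and 4.16% of all genes). Hr, the hairless corepressor that thyroid hormone induces in other tissues, was higher, with means of 93.1 and 21.5 CPM and 6 of 12 against 7 of 38 cells above 1 CPM. Klf9, a zinc finger factor also induced by the hormone, was lower, with means of 14.4 and 45 CPM. Its difference of -1.02 became -0.91 within libraries 1 to 26, just under the 2-fold limit. Rxrg, the retinoid X receptor of cones, did not meet the rule (means of 194 and 209 CPM).

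Receptor-dependent genes were taken from superior cones only, as genes lower in knockout than in control cells by the size rule (488 genes, 4.7% of 10388). Thrb itself was above 1 CPM in 46 of 53 control and 19 of 50 knockout superior cones, and whether its reads lie in the altered part of the gene cannot be seen in gene totals. Between the sides 68 of the 488 (13.9%) were higher in mixed cones and 24 (4.92%) were lower, with a median of 0.23. Within libraries 1 to 26 the counts were 44 higher and 63 lower, and the median of -0.18 was that of all genes. The share of higher genes, 9.02% there, was near the 7.05% of all genes, so the excess over all cells was not seen within the block. Of the 112 genes higher in knockout cells (1.08% of 10388), 106 were examined, and 18 (17%) were lower and 11 (10.4%) higher in mixed cones, beside 4.16% and 8.38% of all genes. In libraries 1 to 26 these counts were 20 (18.9%) and 7 (6.60%), beside 10.4% and 7.05% of all genes, so the excess of lower genes was smaller there.

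Of 11 receptor-dependent genes picked in an earlier look at these same cells, which is not independent evidence, 2 were higher in mixed cones. That is 18.2%, beside 8.38% of all genes. Pgc, a pepsinogen-like protease precursor, ran from 4.73 through 32 to 111 CPM in mixed cones and from 0 through 10.7 to 137 CPM in S-dominant cones, and was above 1 CPM in 0 of 98 knockout cones. All 12 mixed and 24 of 38 S-dominant cones were above 1 CPM, but within libraries 1 to 26 the counts were 11 of 11 and 13 of 15 and the call was lost. Gabrr3, a GABA receptor subunit, was above 1 CPM in 6 of 12 and 8 of 38 cells. The other 9, among them Rd3l, Hopx, Fzd10 and Nptx2, did not meet the rule over all cells. Within libraries 1 to 26 the genes higher were Gabrr3 and Nptx2 (18.2%, all genes 7.05%). Among cells with at least 5100 genes only Nptx2 was higher (9.09%, all genes 6.71%).

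Genes of the cone's light response were mostly level between the sides. Of 18 cone phototransduction genes, 2 were higher in mixed cones (11.1%, near the 8.38% of all genes) and 0 were lower. Gucy2e, a photoreceptor guanylate cyclase, had means of 146 and 43.9 CPM, and 10 of 12 against 20 of 38 cells were above 1 CPM. Slc24a2 was the other. Gnat2, the cone transducin subunit, had means of 8550 and 8940 CPM and Arr3, the cone arrestin, 6830 and 5727 CPM, with differences of -0.06 and 0.20. Among 15 photoreceptor transcription factors examined, Casz1, Mef2c and Samd7 were higher (20%, all genes 8.38%) and 0 were lower. All 3 calls were kept within libraries 1 to 26, but Isl2 and Prdm1 were lower there (13.3%, all genes 10.4%). The median difference of the list went from 0.35 over all cells to -0.33 there, beside 0.12 and -0.18 for all genes. Casz1, a zinc finger factor of photoreceptor fate, was above 1 CPM in 8 of 12 and 12 of 38 cells, with means of 94.8 and 12.6 CPM. Mef2c, a MADS-box factor, was above 1 CPM in 4 of 12 and 6 of 38 cells, with a highest value of 684 CPM in mixed and 17.7 CPM in S-dominant cones. Leaving out 1 mixed cone lowered the differences of Mef2c and Samd7 to as little as 0.87 and 0.72. Both values are under the 2-fold limit, so each of these 2 calls depended on 1 cell. Crx and Neurod1, general photoreceptor factors, did not meet the rule.

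The other lists are small, and their counts stand beside 4.16% of all genes lower over all cells and 10.4% within libraries 1 to 26. Of 13 rod genes, Reep6, a membrane-shaping protein of rods, was lower, with 3 of 12 against 17 of 38 cells above 1 CPM. Of 18 synaptic terminal genes, Cacna1f, the calcium channel of photoreceptor terminals, was lower, with means of 14 and 170 CPM. Of 10 stress and early response genes, the heat shock genes Hspa1a, Hspa1b and Dnajb1 were lower. They were above 1 CPM in 1, 0 and 0 of the 12 mixed cones and in 14, 11 and 10 of the 38 S-dominant cones, and all 3 calls were kept within libraries 1 to 26, while that of Dnajb1 was lost among cells with at least 5100 genes. Of 7 Müller glia markers, Glul, which encodes glutamine synthetase, and Rlbp1, a retinaldehyde-binding protein, were lower. Glul lost its call within libraries 1 to 26, where its difference went from -1.25 to -0.36. Among cells with at least 5100 genes, Dkk3, Glul and Rlbp1 were lower (42.9%, all genes 8.21%). All 7 markers had a negative difference over all cells and in that set, and 5 had one within libraries 1 to 26. Rlbp1 reached at most 1.84 CPM in mixed and 2049 CPM in S-dominant cones.

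Over all genes examined, 793 (8.38%) were higher and 394 (4.16%) were lower in mixed cones. Within libraries 1 to 26 the split turned, with 667 higher and 980 lower, and 418 of the 793 and 310 of the 394 met the rule in both sets of cells. Within the S-dominant side alone, libraries 1 to 26 exceeded libraries 27 to 50 by a median of 0.57 over all genes, of 0.61 over superior genes and of 0.24 over inferior genes. A general direction of difference between the sides is therefore not given by these counts. X-linked genes made up 3.15% of the genes examined, 3.15% of those higher and 3.05% of those lower in mixed cones.

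The 10 genes with the largest differences in each direction were mostly not zone genes. After Kpna2, the highest in mixed cones were Sec23a, a coat protein of vesicles that leave the endoplasmic reticulum, Ccnl1, a cyclin linked to splicing, Stt3b, an oligosaccharyltransferase subunit, and Atp2b1, a plasma membrane calcium pump. Ncam1, Uba1, Cyfip2, Galnt13 and R3hcc1l followed. Sec23a had a median of 442 CPM in mixed and 0.536 CPM in S-dominant cones, and 8 of 12 against 12 of 38 cells were above 1 CPM. Ccnl1 had medians of 413 and 0.518 CPM, and 10 of 12 against 15 of 38 cells. In both genes the sides overlapped, with highest S-dominant values of 518 and 852 CPM. Atp2b1, Ncam1 and Uba1 lost their calls within libraries 1 to 26.

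The lowest in mixed cones was Ctnna1, the alpha-catenin of cell adhesion, at 10.9 CPM on average against 276 CPM in S-dominant and 230 CPM in superior cones. It was above 1 CPM in 4 of 12 mixed, 30 of 38 S-dominant and 40 of 53 superior cones. Taf12, a subunit of the general transcription factor TFIID, was above 1 CPM in 0 of 12, 20 of 38 and 19 of 53 cells. Gle1, an mRNA export factor, was above 1 CPM in 1 of 12, 20 of 38 and 19 of 53 cells, and Rtcb, a tRNA ligase, in 1 of 12, 21 of 38 and 35 of 53 cells. For these 4 genes the superior cones were, in the share of cells above 1 CPM, nearer to the S-dominant cones than to the mixed cones. Cabp5, Tmem55b, Ubl4a, Dnajc10, Nisch and Fam195b completed the 10, and all 10 kept their calls within libraries 1 to 26. By the same share, superior cones were nearer to the S-dominant cones for these too, except for Cabp5 (8 of 53 superior cones). Among the 10 genes highest in mixed cones, superior cones were nearer to the mixed cones except for Galnt13 and R3hcc1l (41 and 15 of 53). Sec23a and Ccnl1 were above 1 CPM in 31 and 42 of 53 superior cones.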

How the data were processed

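Single-cone libraries were made with SMART-Seq v4 and ThruPLEX kits, per the labels' protocols. The submitters' processing notes name bcl2fastq 2, STAR 2.7.3a, MACS2 2.2.7.1 and GRCm38 (mm10). How reads were counted, and with which annotation and gene filter, is not given in the sources used here. The authors deposited CPM for 10390 genes in 430 libraries, whose sums per library were 80.0% to 93.0% of the full CPM scale. Dividing each value by the smallest step of its library gave whole reads for 100% of the values above 0 (tolerance 0.1 reads), at 8.98e+05 to 3.26e+07 reads per cell. Libraries 03 and 14 of the P60 superior control cones had an r of 0.996 on log2(CPM + 1), where the next highest pair had 0.467, and were counted as 1 cell, which left 429 cells. The deposited lists of receptor-bound and open chromatin regions were not used here.

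Cells were averaged as CPM and as log2(CPM + 1) with Python 3.11.15, numpy 2.4.6, pandas 2.3.3 and scipy 1.17.1. The size rule is stated with the results, and genes examined had a mean of at least 5 CPM over the 103 control cones of the 2m collection, opsins left out. Without animals in the labels, cells of 1 sample were not tested. The comparison of P8, P21 and P60 group sums used edgeR 4.0.16 in R 4.3.3 on recovered read counts, with Benjamini-Hochberg adjustment (smallest adjusted p 0.675). The scripts were tested on simulated data. Shares have exact Clopper-Pearson 95% intervals, and a count of 0 allows 3 cells of the total. Without molecular identifiers, both cover counting error only. In an mRNA assay of picked cells a gene at 0 may be present below detection.

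Named genes were Opn1mw, Opn1sw, Vax2, Thrb, the patterning lists and the genes picked in an earlier look, the 10 largest differences in each direction, the 8 largest zone genes in each direction and list members that met the rule. The other zone genes that met it, and list members that did not meet it, were named after their values were seen. The 20 gene lists covered ventral and dorsal patterning, the 3 earlier picks, the thyroid hormone pathway, photoreceptor factors, cone phototransduction, rod, synaptic terminal, stress and sex-linked genes, and markers of 8 other cell types. No horizontal cell or pigment epithelium marker was in the table, and amacrine, ganglion, microglia and endothelium markers had at most 3 measured genes each and 0 that met the rule over all 50 cells. The members and lists were chosen with earlier results of these data known. Gene positions are RefSeq intervals of GRCm38.p6, matched by gene ID for 10146 genes.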

Additional observations from a re-analysis of the deposited data

How the results depend on the processing

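No paired analysis was possible because the numbers in the labels only name cells. The number of genes higher in mixed cones (793) became 1541 on mean log2 values alone, 325 with a pseudocount of 10 CPM, 331 at a mean of at least 50 CPM, 84 at 4-fold and 1627 among cells with Xist at or under 1 CPM. The number lower (394) became 786 with an M share limit of 0.2, 699 on mean CPM alone, 133 with a pseudocount of 10 CPM, 258 at a mean of at least 50 CPM, 54 at 4-fold, 1268 among cells with Xist over 1 CPM and 1020 among the others, 980 in libraries 1 to 26 and 777 in cells with at least 5100 genes. The last 2 sets of cells, and all settings of the zone score and of counts of zone genes, were chosen after seeing the data. The superior median (0.37) became 1.16 at a mean of at least 50 CPM (all genes 0.28) and 1.17 at 4-fold (6 superior genes, all genes 0.12). It was above 0 in all 18 alternatives (0.015 to 1.17). The lowest, 0.015, was among cells with Xist at or under 1 CPM (4 mixed and 28 S-dominant cones), where all genes had -0.083. The inferior median (-0.40) turned to 0.099 with zone genes chosen on mean log2 values alone and to 0.085 with genes from P21 alone, and was below 0 in the other 16. The zone score difference (0.97) became 1.99 at 4-fold (6 superior and 4 inferior genes), 0.16 with genes from P21 alone and 0.28 with genes from P60 alone. Among cells with Xist over 1 CPM, 5 inferior genes were lower in place of 9. Thrb (0.43) turned to -1.26 with a limit of 0.2, -1.20 without the cells richest in rod RNA, -2.11 among cells with Xist over 1 CPM, -1.65 in libraries 1 to 26 and -0.65 in cells with at least 5100 genes, and to -0.047 without 1 mixed cell. The cause of these changes was not tested. Leaving out each mixed cell in turn gave 765 to 834 genes higher and 397 to 466 lower, superior medians of 0.37 to 0.51, inferior medians of -0.45 to -0.27, score differences of 0.87 to 1.05, 23 to 30 superior genes higher and 5 to 9 inferior genes lower. For single genes it gave 4.72 to 4.85 for Opn1mw, -1.35 to -1.08 for Opn1sw, -1.12 to -1.10 for Vax2 and -0.047 to 0.88 for Thrb. With 12 mixed cells, a share of cells that is 0 has an upper limit of 25%.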
